A study of Mus musculus with 2 samples.

Results

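Transforming growth factor beta (TGF-β) is secreted as a latent complex that is stored in the matrix and released locally. Released ligand binds the type II receptor, which recruits and phosphorylates the type I receptor, and the signal passes to SMAD proteins in the nucleus. Activin A, a dimer of the Inhba product, is a related ligand with its own receptors that uses the same receptor-activated SMADs. In joints these ligands are known for matrix production, for chondrocyte and bone remodelling and for restraint of inflammation.

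The genes described here were 9 of the 32285 genes in the count tables and were chosen by symbol. They comprised the 3 ligand genes Tgfb1, Tgfb2 and Tgfb3, the activin A subunit Inhba, the receptors Tgfbr1 and Tgfbr2, the co-receptor Tgfbr3, the latent ligand binding protein Ltbp1 and the TGF-β-induced matrix protein Tgfbi. They were measured by single-cell RNA sequencing of the temporomandibular joint (TMJ), the jaw joint, of C57BL/6 mice aged 8 to 10 weeks, described by the study as female. Complete Freund's adjuvant (CFA), an emulsion with killed mycobacteria that causes arthritis, had been given into the joint in both groups. One library came from wild-type (WT) mice and one from Prox1 mutant mice. The study's methods give the mutants as Prox1+/- mice from another laboratory. Prox1 encodes a transcription factor needed for lymphatic endothelial identity. The number of animals behind each library is not given in the sources used here, and an uninjected library was not analysed here. With 1 library per genotype no test between genotypes was possible. All intervals below are 95% intervals that cover counting error only, so a difference between the libraries cannot be told apart from a difference between 2 dissections.

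The WT library held 4352 cells after filtering with a median of 6997 unique molecular identifiers (UMIs, which count RNA molecules), and the mutant library 5757 cells with a median of 4848. Prox1 stood at 11.6 UMIs per 1000000 (CPM, interval 10.7 to 12.6) in WT and at 5.80 CPM (5.18 to 6.47) in the mutant, and no cluster was named lymphatic endothelial. Cells were clustered, and 34 of 44 clusters were named from marker genes, which gave 23 cell types, of which 19 held at least 20 cells in each library and were compared. Each name stands for a marker-defined, X-like class. The clusters without a name held 8.96% of WT and 32.5% of mutant cells, and some of these clusters were led by haemoglobin or immunoglobulin genes. The clusters were built from the expression of these same cells, so levels between cell types are a description. In the macrophage class the haemoglobin gene Hba-a1 was at 61.85 CPM in the WT library and 2137 CPM in mutant macrophages, so erythroid RNA outside erythroid cells differed between the libraries. Its part in the results was not tested. The libraries shared 10 cell barcodes, 4 of them among the kept cells.

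Over the 19 cell types, the 9 genes made 171 pairs of gene and cell type. Of these, 121 reached 50 UMIs over both libraries. The mutant level was at least 2-fold higher in 14 pairs (11.6%) and at least 2-fold lower in 9 (7.44%), while 98 lay within 2-fold. Over all genes in the same cell types 3.92% were at least 2-fold higher and 2.79% at least 2-fold lower. Ltbp1 gave 6 of the 14 higher pairs and no lower pair. Inhba and Tgfbi gave 4 lower pairs each. Tgfb1, Tgfb3 and Tgfbr1 gave none in either direction.

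By cell type, chondrocytes and osteoblasts and osteocytes held the most pairs past 2-fold, 3 each. In chondrocytes 3 of 8 genes with enough UMIs were higher, beside 17.3% of all genes higher and 10.0% lower. Osteoblasts and osteocytes held 2 higher and 1 lower of 8, where 3.86% of all genes were higher and 3.99% lower. Mature neutrophils held 2 lower of 8 (all genes 4.11% higher, 2.19% lower). One gene was higher in arterial cells (1.43% and 2.52%), capillary cells (2.35% and 1.75%), granulocyte-monocyte progenitors (3.74% and 1.22%), inflammatory macrophages (5.56% and 1.46%), mesenchymal cells (3.62% and 2.38%), muscle satellite cells (3.39% and 5.08%) and Pi16-positive fibroblasts (2.35% and 3.37%), the shares being those of all genes higher and lower. One gene was lower in B cells (7.85% and 4.33%), macrophages (3.21% and 1.11%), T and NK cells (6.41% and 4.44%) and venous cells (2.4% and 2.03%). Erythroid cells (4.64% and 3.63%) and pericytes (3.33% and 4.29%) held 1 in each direction. Immature neutrophils (2.61% and 2.02%), myelinating Schwann cells (1.61% and 2.07%) and smooth muscle cells (1.53% and 1.97%) held none.

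**Figure D1:**
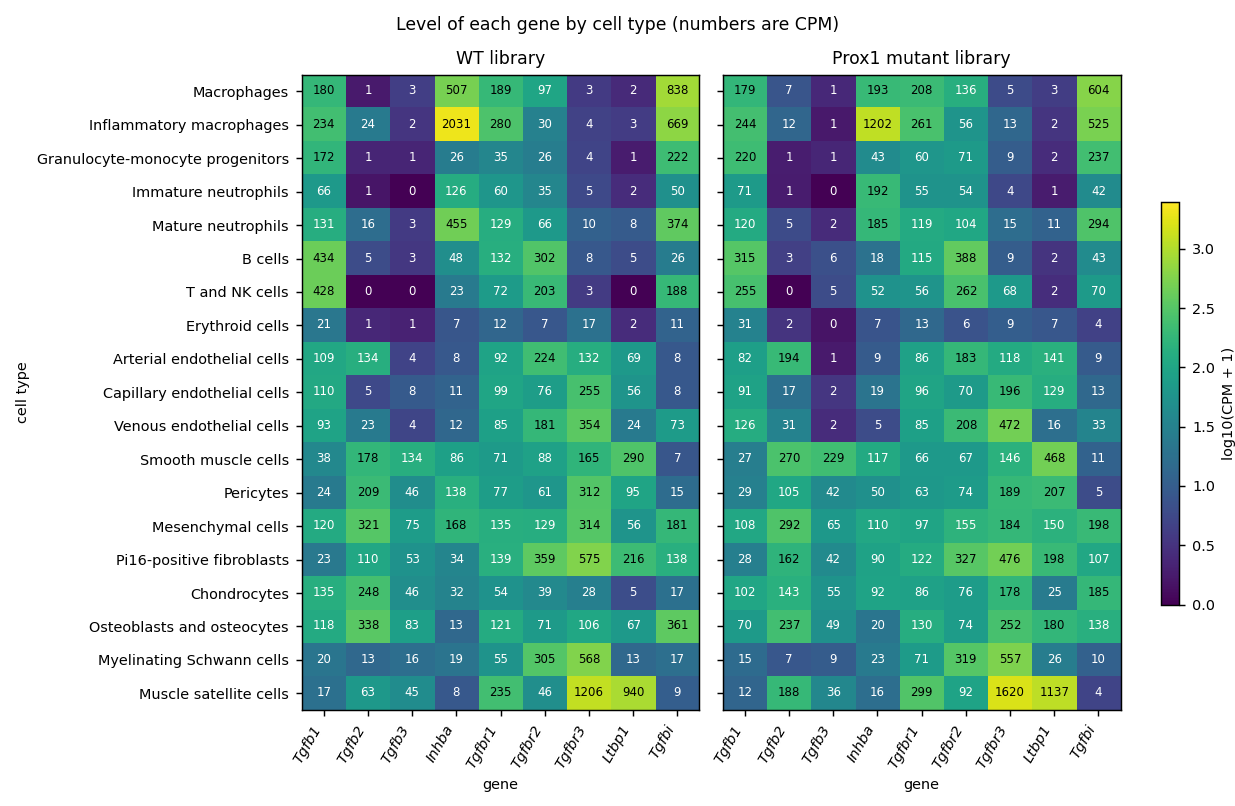
Level of each of the 9 genes (columns) in the 19 compared cell types (rows), with the WT library on the left and the Prox1 mutant library on the right. Numbers are CPM of summed UMIs and the colour is log10(CPM + 1). Inhba in inflammatory macrophages and Tgfbr3 and Ltbp1 in muscle satellite cells were the highest entries in both libraries.

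For orientation, 2 genes of the set are shown with the sequence in front of their transcription starts. Ltbp1 is printed because it was at least 2-fold higher in the mutant in more cell types than any other of the 9, and Inhba because it had the highest level of the set. In GRCm38, Ltbp1 spans chr17:75005568-75392512 and Inhba chr13:16011851-16031621, both on the plus strand. Of the other genes, Tgfb1 spans chr7:25687002-25705077, Tgfbr1 chr4:47353222-47414931 and Tgfbi chr13:56609523-56639562 on the plus strand. Tgfb2 spans chr1:186622792-186705989, Tgfb3 chr12:86056745-86079041, Tgfbr2 chr9:116084293-116175360 and Tgfbr3 chr5:107106570-107289629 on the minus strand. RefSeq gives Ltbp1 2 separate starts, and 3′ counting did not assign a UMI to either. The 250 bases upstream of each start (RefSeq, GRCm38.p6, plus strand) are printed in lower case with motif matches in capitals.
Ltbp1, upstream start, chr17:75005279-75005528: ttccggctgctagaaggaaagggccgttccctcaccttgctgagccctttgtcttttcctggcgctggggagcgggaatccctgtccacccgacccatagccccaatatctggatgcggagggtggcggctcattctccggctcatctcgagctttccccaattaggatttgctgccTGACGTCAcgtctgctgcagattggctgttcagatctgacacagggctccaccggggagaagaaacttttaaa
Ltbp1, downstream start, chr17:75178531-75178780: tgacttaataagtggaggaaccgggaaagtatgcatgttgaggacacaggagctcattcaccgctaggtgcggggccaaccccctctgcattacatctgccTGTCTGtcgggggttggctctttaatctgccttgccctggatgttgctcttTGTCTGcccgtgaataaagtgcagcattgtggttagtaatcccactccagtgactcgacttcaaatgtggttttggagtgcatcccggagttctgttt
Inhba, chr13:16011601-16011850: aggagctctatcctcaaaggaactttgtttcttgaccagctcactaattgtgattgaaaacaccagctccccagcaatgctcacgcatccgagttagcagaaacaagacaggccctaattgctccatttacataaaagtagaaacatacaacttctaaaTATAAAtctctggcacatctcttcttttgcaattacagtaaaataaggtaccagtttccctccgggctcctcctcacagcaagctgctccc
Searched on both strands were the cyclic AMP response element TGACGTCA, the AP-1 motif TGANTCA, the CAGACA sequence of SMAD-binding CAGA boxes and the TATAAA sequence. Of 32851 promoter windows of this length, 1.55% held TGACGTCA, 6.75% TGANTCA, 17.1% CAGACA and 12.4% TATAAA. The upstream Ltbp1 window held TGACGTCA once, the downstream window held CAGACA 2 times as its reverse complement, and the Inhba window held TATAAA once. A match of letters is a description of the window and not evidence of binding. RefSeq windows were at hand for 7 of the 9 genes.

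Among the TGF-β ligand genes, Tgfb1 reached the UMI minimum in 16 cell types, Tgfb2 in 11 and Tgfb3 in 5. Tgfb1 encodes the main isoform of immune cells. Its level was highest in B cells, at 433.5 CPM (388.5 to 482.4) in WT cells against 315 CPM (279 to 354) in mutant cells. T and NK cells followed with 428 CPM in WT cells against 255 CPM in mutant cells, and in WT these intervals overlapped with those of B cells. Inflammatory macrophages were at 234 CPM in WT cells against 243.5 CPM in mutant cells. The log2 ratio (mutant over WT) was 0.06 (-0.03 to 0.15) in inflammatory macrophages and -0.01 (-0.15 to 0.12) in macrophages. Myeloid cells held 52.4% of all WT Tgfb1 UMIs. The lowest levels were in muscle satellite cells, at 16.9 and 12.0 CPM, and in myelinating Schwann cells, at 19.9 and 14.6 CPM. Of the 16 cell types with enough UMIs, 10 were lower and 6 higher in the mutant, and the ratio ranged from -0.76 in osteoblasts and osteocytes to 0.56 in erythroid cells.

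Tgfb2 was a stromal and vascular ligand in these libraries. Mesenchymal cells were at 321 CPM (299 to 344) in WT cells against 292.5 CPM (269 to 318) in mutant cells, and osteoblasts and osteocytes at 338 CPM in WT cells against 237 CPM in mutant cells. The larger mesenchymal cluster (175 WT and 107 mutant cells) was at 329 and 341 CPM. The second (14 WT and 86 mutant cells) was at 135 and 88.5 CPM. Smooth muscle cells were at 178 CPM in WT cells against 270.2 CPM in mutant cells. Within the endothelium, arterial cells held the most, at 134 and 194 CPM in WT and mutant. Capillary cells were at 4.61 and 16.8 CPM and venous cells at 23.1 and 30.8 CPM. T and NK cells held no UMI in either library, with an upper interval bound of 10.7 CPM in the 46 WT cells and 6.44 CPM in the 83 mutant cells. The ratios had no common direction, with smooth muscle cells (0.60), Pi16-positive fibroblasts (0.57) and arterial cells (0.53) higher in the mutant and pericytes (-0.99), chondrocytes (-0.80) and osteoblasts and osteocytes (-0.51) lower. In osteoblasts and osteocytes, the larger cluster (85 WT and 30 mutant cells) was at 482 and 505 CPM. The smaller (27 and 19 cells) was at 15.0 and 9.38 CPM. In pericytes 1 WT cell held 35.1% of the WT UMIs, and the mean of CPM per cell was 190 in WT and 169.5 in the mutant. In chondrocytes 1 WT cell held 31.6% of the WT UMIs. Tgfb2 lies on the same chromosome as Prox1, 3.41 megabases away on chromosome 1.

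Both pairs of Tgfb2 past 2-fold rested on few cells. In muscle satellite cells the level was 63.1 CPM in WT cells against 188 CPM in mutant cells, and 3.39% of all genes were at least 2-fold higher there. A single mutant cell held 80.85% of those UMIs, and without the top cell of each library the log2 ratio was -0.25. In mature neutrophils the level was 15.5 CPM in WT cells against 5.06 CPM in mutant cells, beside 2.19% of all genes at least 2-fold lower, and 1 WT cell held 42.4% of the UMIs. As a mean of CPM per cell the neutrophil ratio was 0.95.

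Tgfb3 is the isoform known for its role in palate development. Smooth muscle cells led with 134 CPM (117 to 153) in WT cells against 229 CPM (204 to 255) in mutant cells, a log2 ratio of 0.77 (0.52 to 1.02). No other cell type reached those levels. The cluster that held all WT smooth muscle cells and 88 of the 119 mutant ones was at 134 and 239 CPM. Its thinned shares of cells with a UMI were 20.4% in WT and 21.6% in the mutant. In it, 1 mutant cell held 13.5% of the mutant UMIs. Osteoblasts and osteocytes were at 83.2 CPM in WT cells against 48.7 CPM in mutant cells, and mesenchymal cells at 75.2 and 64.9 CPM. In 14 of the 19 types the gene did not reach 50 UMIs, and immature neutrophils held no UMI of it in either library.

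Inhba was chiefly a macrophage gene here, and myeloid cells held 87.4% of its WT and 73.8% of its mutant UMIs. Inflammatory macrophages, the class marked by Spp1, Mmp12 and Nos2, held 2031 CPM (2002 to 2061) in WT cells against 1202 CPM (1177 to 1228) in mutant cells, a log2 ratio of -0.76 (-0.79 to -0.72). After thinning each cell to 2000 UMIs, 73.4% of WT and 53.8% of mutant inflammatory macrophages had an Inhba UMI, against 2.04% and 1.55% of erythroid cells, which should lack the gene. The median cell was at 1364 CPM in WT cells against 356 CPM in mutant cells. Macrophages, the class marked by C1q genes, were at 507 CPM (484.5 to 529) in WT cells against 193 CPM (182 to 204) in mutant cells, a log2 ratio of -1.39 (-1.50 to -1.29). The share of thinned macrophages with a UMI was 23.7% in WT and 14.8% in the mutant. With the libraries merged without integration, which reassigns cells to classes, the macrophage ratio was -0.35. Over all genes, 1.11% were at least 2-fold lower in the mutant macrophages and 1.46% in the mutant inflammatory macrophages.

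The inflammatory macrophages of the libraries were not of equal make-up, and Inhba itself was among the 10 leading genes of their larger cluster. They fell into 2 clusters, with 259 WT and 204 mutant cells in the larger and 55 WT and 130 mutant cells in the smaller. Inhba was lower in the mutant in both, at 2041 against 1235 CPM and at 1810 against 905 CPM. The summed level of their 7 markers was 10530 CPM in WT cells against 8017 CPM in mutant cells. Spp1 was at 5121 and 2794 CPM, while Cxcl9, an interferon-induced chemokine, was at 86.25 and 275 CPM. Whether this make-up sets the Inhba difference was not tested. In cells chosen without clusters, by at least 3 UMIs of macrophage markers, Inhba was at 1174 CPM in 824 WT cells and at 524.5 CPM in 1580 mutant cells. The log2 ratio was -1.16 (-1.20 to -1.13). That choice also took in other cells, as macrophages and inflammatory macrophages held 256 and 314 WT and 342 and 334 mutant cells. The part of those other cells in the ratio was not tested.

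In the neutrophil classes Inhba differed in both directions. The class named mature neutrophils held neutrophil markers (69210 CPM in WT, 86910 CPM in the mutant, summed over 7 genes) together with macrophage markers (2222 and 2356 CPM over 8 genes, above the 1908 and 1910 CPM of inflammatory macrophages), so its values are not those of neutrophils alone. That class was at 455 CPM in WT cells against 185 CPM in mutant cells, a log2 ratio of -1.30 (-1.44 to -1.16), while immature neutrophils, rich in granule genes, were at 126 CPM in WT cells against 192 CPM in mutant cells. The mature class joined 2 clusters. In the cluster that held most WT cells (182 WT, 170 mutant) Inhba was at 156 and 125 CPM, a log2 ratio of -0.32 (-0.70 to 0.07). In the other (50 WT, 267 mutant), led by the macrophage chemokine gene Ccl8, it was at 599 and 205.5 CPM, and this cluster held 861 of the 969 WT and 574 of the 695 mutant Inhba UMIs of the class. The median cell of that cluster had 20920.5 UMIs among WT cells and 3742 among mutant cells. Beside this, the thinned share of mature neutrophils with a UMI was 15.1% in WT and 18.8% in the mutant, so the share ran against the level. The summed level of the 7 inflammatory macrophage markers in mature neutrophils was 4026 CPM in WT cells against 3018 CPM in mutant cells, and the part of macrophage RNA in the Inhba difference was not tested. With the libraries merged without integration the ratio of mature neutrophils was 0.18.

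Outside the myeloid cells, Inhba was at least 2-fold higher in the mutant in Pi16-positive fibroblasts and chondrocytes. Pi16-positive fibroblasts, whose leading genes also included the lining gene Prg4, were at 34.0 CPM (29.4 to 39.2) in WT cells against 89.8 CPM (81.2 to 99.1) in mutant cells, where 2.35% of all genes were at least 2-fold higher. A single mutant cell held 36.3% of those UMIs, and the thinned shares were 4.25% and 6.36%. The inflammatory macrophage markers summed to 730 CPM in WT and 1130 CPM in mutant Pi16-positive fibroblasts. The 6 markers of lining fibroblasts summed to 2857 and 4596 CPM there. The part of either set of markers in the result was not tested. Chondrocytes were at 32.2 and 91.7 CPM. That class is the least comparable of the 19, since its 29 WT cells had a median of 32750 UMIs and its 107 mutant cells 3359, and 17.3% of all genes were at least 2-fold higher and 10.0% at least 2-fold lower in it. Under both other cell filters and after removal of doublets the chondrocyte ratio of Inhba was below 0, from -0.36 to -0.22. Lower levels in the mutant in B cells (47.6 and 18.2 CPM, background 4.33%) and pericytes (138 and 49.9 CPM, background 4.29%) rested on 1 WT cell each, with 83.8% and 65.3% of the UMIs, and the B cell ratio was 0.94 without the top cell of each library. Smooth muscle cells were at 85.7 and 117 CPM and mesenchymal cells at 168.5 and 110 CPM.

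**Figure D2:**
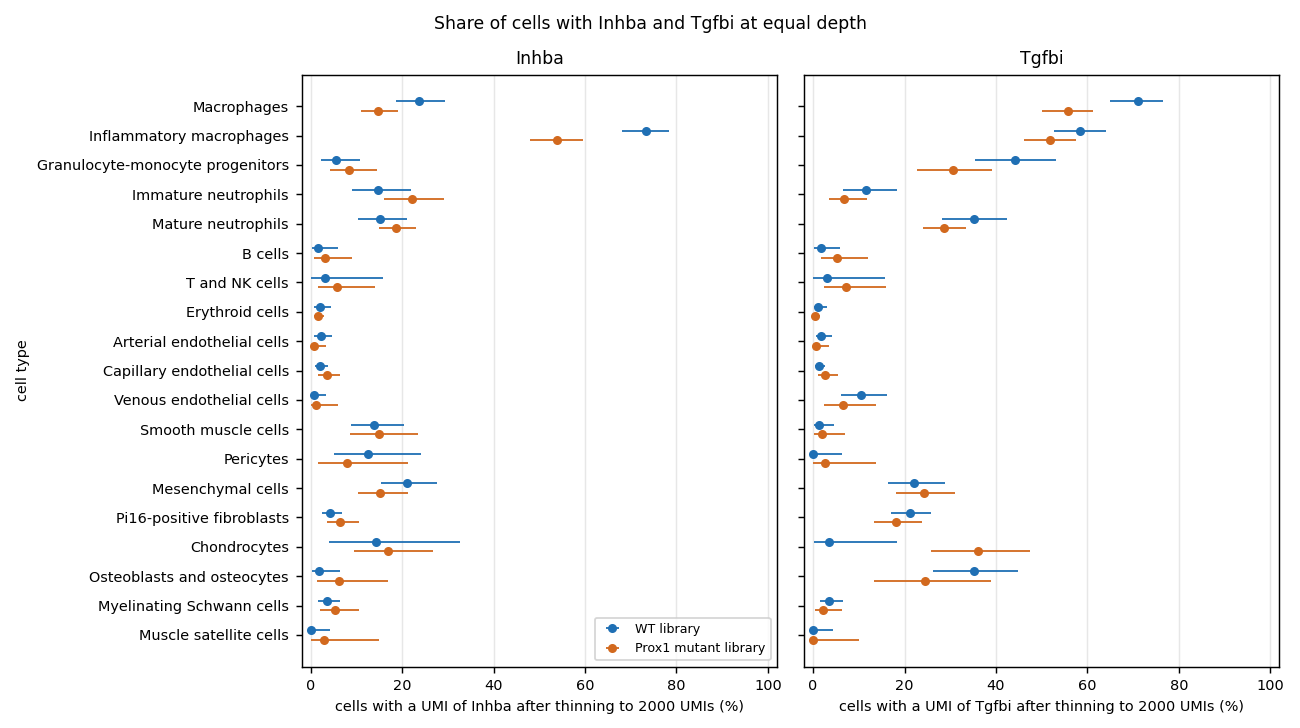
Share of cells with at least 1 UMI of Inhba (left) and of Tgfbi (right) after each cell was thinned to 2000 UMIs, by cell type, with the WT library in blue and the Prox1 mutant library in orange. Bars are exact 95% binomial intervals. Inflammatory macrophages lead for Inhba with 73.4% in WT and 53.8% in the mutant, and macrophages lead for Tgfbi with 71.1% and 55.7%.

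Both signalling receptors reached the UMI minimum in all 19 cell types. For Tgfbr1, the type I kinase receptor, every ratio lay within 2-fold, from -0.48 in mesenchymal cells to 0.79 in granulocyte-monocyte progenitors. Its highest levels were in inflammatory macrophages, at 280.4 CPM (269 to 292) in WT cells against 261 CPM (249 to 273) in mutant cells, and in muscle satellite cells, at 235 and 299 CPM. The intervals of these 2 types overlapped in each library. Macrophages followed at 189 and 208 CPM.

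Tgfbr2, the type II receptor that binds ligand first, had another distribution. Pi16-positive fibroblasts were at 359 CPM (344 to 375) in WT cells against 327 CPM (310.2 to 344) in mutant cells, B cells at 302 and 388 CPM and myelinating Schwann cells at 305 and 319 CPM. Inflammatory macrophages, among the highest for Tgfbr1, were among the lowest for Tgfbr2, at 30.2 CPM in WT cells against 55.6 CPM in mutant cells. Of the UMIs of both receptors together, Tgfbr2 made up 9.73% (8.64 to 10.9) in WT and 17.6% (16.0 to 19.2) in mutant inflammatory macrophages, the lowest shares of the compared types in each library. The next lowest, muscle satellite cells at 16.4% (11.3 to 22.6) and 23.5% (15.5 to 33.1), overlapped with them in the mutant. In myelinating Schwann cells it made up 84.8% and 81.7%. Because the 2 genes may be captured with different efficiency, this share is read only between cell types and libraries.

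Tgfbr2 was higher in the mutant in 14 of 19 cell types, with the interval above 0 in 9 and below 0 in 3. Every compared myeloid and neutrophil class was among the 14. The rest were B cells, T and NK cells, chondrocytes, osteoblasts and osteocytes, mesenchymal cells, muscle satellite cells, myelinating Schwann cells, pericytes and venous cells. Over all genes, the median log2 ratio lay from -0.06 in B cells to 0.21 in inflammatory macrophages. It was 0.10 in macrophages, 0.09 in granulocyte-monocyte progenitors, 0.05 in mature and 0.04 in immature neutrophils. Granulocyte-monocyte progenitors were at 26.4 CPM (20.3 to 33.6) in WT cells against 71.2 CPM (60.7 to 82.9) in mutant cells, the one pair past 2-fold, in a class where 3.74% of all genes were at least 2-fold higher. The log2 ratio there was 1.43 (1.01 to 1.87), and the thinned shares of cells were 6.98% and 12.98%. Inflammatory macrophages had a log2 ratio of 0.88 (0.65 to 1.11), mature neutrophils 0.64 (0.36 to 0.93), immature neutrophils 0.61 (0.17 to 1.07) and macrophages 0.49 (0.31 to 0.66). In macrophage-marker cells chosen without clusters Tgfbr2 was at 56.1 CPM in WT cells against 99.6 CPM in mutant cells. The log2 ratio was 0.83 (0.72 to 0.94). As stated for Inhba, that choice also took in other cells, and their part in the ratio was not tested. The 3 cell types with an interval below 0 were arterial cells (-0.29, -0.53 to -0.05), smooth muscle cells (-0.39, -0.78 to -0.0076) and Pi16-positive fibroblasts (-0.14, -0.23 to -0.04).

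Tgfbr3, betaglycan, presents Tgfb2 to the signalling receptors and is also a co-receptor for inhibin. It was highest in muscle satellite cells, the Pax7-marked muscle stem cells, at 1206 CPM (1123 to 1293) in WT cells against 1620 CPM (1467 to 1786) in mutant cells. After thinning, 81.2% of WT and 82.9% of mutant satellite cells had a UMI. Pi16-positive fibroblasts (575 and 476 CPM) and myelinating Schwann cells (568 and 557 CPM) came next, and the intervals of those 2 overlapped in WT. Venous cells were at 354 and 472 CPM and capillary cells at 255 and 196 CPM, while the immune classes stayed under 16 CPM in both libraries except mutant T and NK cells at 68.1 CPM.

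Tgfbr3 was at least 2-fold higher in the mutant in 3 cell types. Osteoblasts and osteocytes were at 106 CPM (91.5 to 123) in WT cells against 252.5 CPM (222 to 286) in mutant cells. The log2 ratio was 1.25 (0.97 to 1.53), where 3.86% of all genes were at least 2-fold higher. That pair stayed past 2-fold under 8 of 11 alternatives, with ratios from 0.22 to 1.33. Inflammatory macrophages were at 3.65 and 12.8 CPM (background 5.56%), near the level of the erythroid class at 17.3 and 9.22 CPM. Chondrocytes were at 27.9 and 178 CPM, with ratios from -0.13 to -0.0045 under both other cell filters and after removal of doublets. In 5 cell types the interval lay below 0, among them mesenchymal cells (-0.77), pericytes (-0.72) and capillary cells (-0.38).

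Ltbp1, which tethers latent TGF-β to the extracellular matrix, was higher in the mutant in 9 of the 11 cell types with enough UMIs, with the interval above 0 in 8 and below 0 in 1. The median log2 ratio of all genes was 0.20 in erythroid, 0.10 in capillary and 0.03 in mesenchymal cells. It was 0.0013 in arterial cells, -0.0058 in osteoblasts and osteocytes, and -0.03 in pericytes. Capillary endothelial cells were at 56.0 CPM (47.3 to 65.9) in WT cells against 129 CPM (112 to 148) in mutant cells, a log2 ratio of 1.20 (0.89 to 1.52). Arterial endothelial cells were at 68.8 CPM (57.2 to 82.0) and 141 CPM (121.5 to 163), a log2 ratio of 1.04 (0.70 to 1.38). The shares of all genes at least 2-fold higher were 2.35% in capillary and 1.43% in arterial cells. At 2000 UMIs per cell, 10.5% of WT and 19.9% of mutant capillary cells and 12.4% and 27.3% of arterial cells had an Ltbp1 UMI. B cells, which should lack the gene, were at 1.68% and 1.06%. Venous cells were at 24.2 and 16.25 CPM, with an interval of the ratio from -1.27 to 0.08. Merging the libraries without integration gave a ratio of -0.58 in arterial cells.

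The bone and mural classes showed the same side. Osteoblasts and osteocytes were at 67.0 CPM (55.4 to 80.4) in WT cells against 179.5 CPM (154 to 208) in mutant cells, a log2 ratio of 1.42 (1.08 to 1.77). Their 2 clusters gave 25.9 and 68.4 CPM in the first and 159 and 274 CPM in the second, and 8.11% of WT and 26.5% of mutant cells had a UMI at equal depth. Pericytes were at 95.4 and 207 CPM, with a log2 ratio of 1.12 (0.60 to 1.65) and a background of 3.33%, and were past 2-fold under 4 of 8 alternatives. Smooth muscle cells were at 290.4 CPM (265 to 317.5) and 468 CPM (433 to 505), a log2 ratio of 0.69 (0.52 to 0.86), and the share of cells with a UMI was 31.6% in WT and 51.0% in the mutant.

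In mesenchymal cells Ltbp1 was at 55.9 CPM in WT cells against 150.5 CPM in mutant cells, a log2 ratio of 1.43 (1.13 to 1.73) with a background of 3.62%. Of this class, 175 WT and 107 mutant cells fell into 1 cluster, where the level was 57.0 and 181 CPM. The second cluster, led by Mmp10, Cxcl5 and Saa3, held 14 WT and 86 mutant cells, with Ltbp1 at 28.9 and 22.1 CPM from 3 and 8 UMIs. The ratio of the whole class was past 2-fold under 4 of 7 alternatives. Pi16-positive fibroblasts were at 216 and 198 CPM and muscle satellite cells, the class with the highest level, at 940 and 1137 CPM. Erythroid cells were at 1.70 and 7.48 CPM, a log2 ratio of 2.14 (0.93 to 3.64) at a very low level and with a background of 4.64%. Pooled over the 3 endothelial classes the level was 47.4 CPM in 1023 WT cells and 90.9 CPM in 577 mutant cells, a log2 ratio of 0.94 (0.73 to 1.15). In a cluster-free choice of cells by at least 3 UMIs of endothelial markers the ratio was smaller, at 0.30 (0.13 to 0.46). That choice also took in other cells, with Inhba at 380 CPM in WT against 10.8 CPM in the named endothelial classes.

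**Figure D3:**
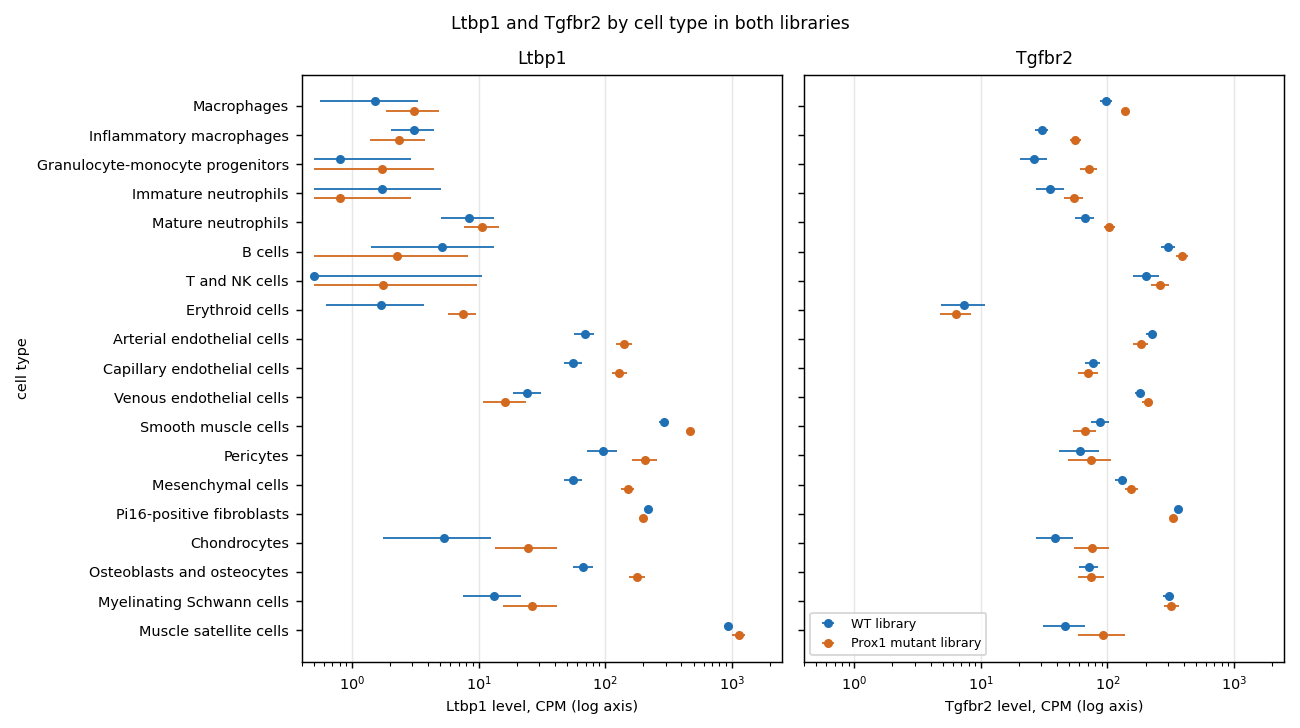
Level of Ltbp1 (left) and Tgfbr2 (right) in CPM on a log axis, by cell type, with the WT library in blue and the Prox1 mutant library in orange. Bars are exact 95% Poisson intervals, and values or bounds under 0.5 CPM are drawn at 0.5. For Ltbp1 the mutant points of capillary, arterial, mural, mesenchymal and osteoblast classes sit to the right of the WT points. For Tgfbr2 those of the myeloid and neutrophil classes do, and also those of other classes such as B cells.

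Tgfbi, a secreted matrix protein named for its induction by TGF-β, was chiefly a myeloid transcript. Macrophages were at 838 CPM (810 to 867) in WT cells against 604 CPM (584.5 to 624) in mutant cells, and inflammatory macrophages at 669 CPM (652 to 687) and 525 CPM (509 to 542). The log2 ratios were -0.47 (-0.54 to -0.40) and -0.35 (-0.41 to -0.29). Mature neutrophils were at 374 and 293.5 CPM and granulocyte-monocyte progenitors at 222.5 and 237 CPM. Myeloid cells held 74.2% of the WT UMIs of the gene. Of 13 cell types with enough UMIs, 9 were lower in the mutant, 8 of them with the interval below 0.

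The pairs of Tgfbi at least 2-fold lower included one class in which the gene was abundant. Osteoblasts and osteocytes were at 361 CPM (333 to 391) in WT cells against 138 CPM (116 to 163) in mutant cells, a log2 ratio of -1.39 (-1.67 to -1.12), where 3.99% of all genes were at least 2-fold lower. The share of cells with a UMI was 35.1% in WT and 24.5% in the mutant. Nearly all of it came from the larger of the 2 clusters (85 WT and 30 mutant cells), at 517 and 282.5 CPM, against 11.2 and 15.0 CPM in the smaller (27 WT and 19 mutant cells). Neither cluster was at least 2-fold lower by itself, and the smaller held 27 of the 112 WT and 19 of the 49 mutant cells. Inflammatory macrophage markers summed to 1629 CPM in WT and 4868 CPM in mutant osteoblasts and osteocytes, and their part in the result was not tested. Venous cells were at 72.7 and 33.1 CPM (background 2.03%), T and NK cells at 188 and 69.8 CPM (background 4.44%) and erythroid cells at 11.0 and 3.61 CPM (background 3.63%). In T and NK cells 1 of 46 WT cells held 50.8% of the UMIs and 1 of 83 mutant cells 42.5%. Macrophage markers in that class summed to 778.5 CPM in WT cells against 243 CPM in mutant cells, and their part in the result was not tested. In cells chosen by endothelial markers in place of the venous cluster, which also took in other cells, the log2 ratio of Tgfbi was 0.29. Chondrocytes went the other way, at 17.2 and 185 CPM, in the class of unequal depth described above. Summed markers of macrophages (14.0 and 400.2 CPM), endothelial cells (5.37 and 331 CPM) and erythroid cells (39.7 and 25490 CPM) were also higher in the mutant chondrocytes, and their part in the results of that class was not tested.

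**Figure D4:**
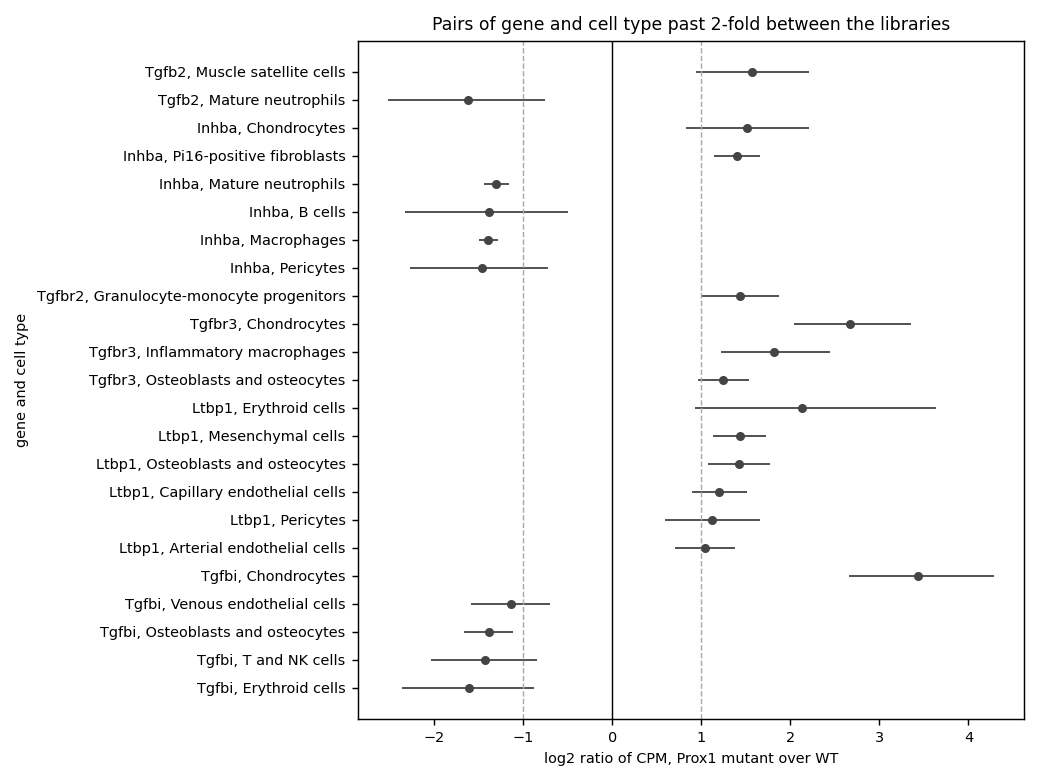
The 23 pairs of gene and cell type past 2-fold between the libraries, with the log2 ratio of CPM (Prox1 mutant over WT) on the horizontal axis and exact 95% counting intervals as bars. Dashed lines mark 2-fold. Ltbp1 shows 6 pairs to the right of 0 and none to the left, while Inhba and Tgfbi each show 4 pairs to the left.

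Over whole libraries these differences were mixed with the make-up of each library. All 9 genes were lower in the mutant library, from a log2 ratio of -0.93 (-0.96 to -0.90) for Inhba to -0.05 (-0.11 to -0.0025) for Tgfbr2. When the shares of UMIs of each cell type were held at the WT values, Tgfb3 moved from -0.54 to -0.08, Tgfbr3 from -0.60 to -0.03 and Tgfb2 from -0.44 to 0.10. Inhba stayed at -0.72 and Tgfbi at -0.35, and Ltbp1 moved from -0.10 to 0.47. For Ltbp1, Tgfbr2 and Tgfb2 the ratio at WT shares had the opposite sign from that over the whole library. By cell type, Ltbp1 was higher in 9 of 11 and Tgfbr2 in 14 of 19 cell types, while Tgfb2 was higher in 5 and lower in 6. The median log2 ratio of all genes by cell type lay from -0.06 to 0.21, as given above.

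**Figure D5:**
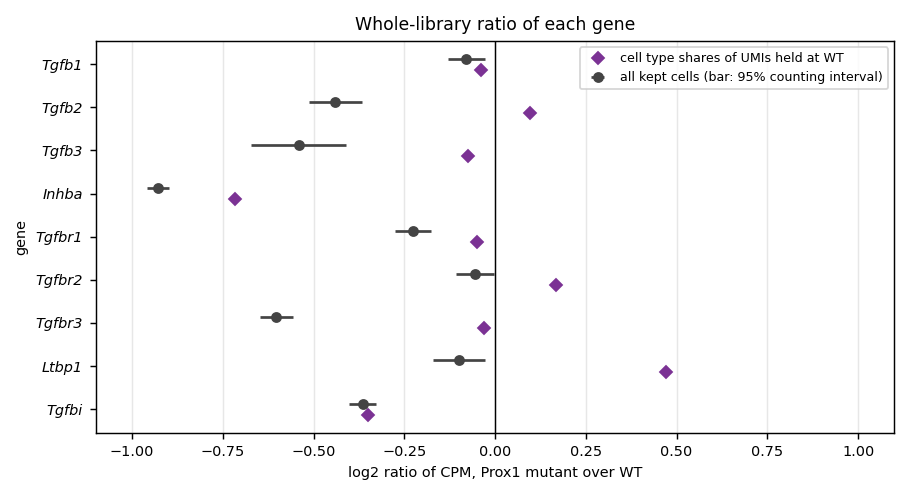
Log2 ratio of CPM (Prox1 mutant over WT) of each gene over all kept cells, as grey circles with exact 95% counting intervals, and with the cell type shares held at WT, as purple diamonds. The diamonds for Tgfb2, Tgfb3 and Tgfbr3 lie near 0, that for Ltbp1 at 0.47 and that for Inhba at -0.72.

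The levels of other genes of the pathway, 47 in 5 lists, were read by the same rule, and none of these values is a test of signalling. Among 10 SMAD transducers and inhibitors, 3 of 168 pairs with enough UMIs were at least 2-fold higher and 3 lower, beside 3.92% and 2.79% over all genes. Smad3, a receptor-activated SMAD, was higher in the mutant in 15 of 16 cell types, with 16.5 and 47.4 CPM in inflammatory macrophages and 32.0 and 66.4 CPM in granulocyte-monocyte progenitors, and was lower in chondrocytes at 270 and 123 CPM. The median log2 ratio of all genes in these 3 types was 0.21, 0.09 and 0.17. Of 67 pairs of the activin list, 1 was higher and 3 were lower (all genes 3.92% and 2.79%), and the lower ones were all Bambi, a decoy receptor for TGF-β and activin. Bambi was lower in the mutant in all 12 cell types with enough UMIs, by at least 2-fold in capillary cells (31.1 and 12.6 CPM), osteoblasts and osteocytes (283 and 114 CPM) and chondrocytes (335 and 45.8 CPM), where 1.75%, 3.99% and 10.0% of all genes were lower. Acvr2a, an activin type II receptor, was the higher one, in T and NK cells at 43.4 and 89.0 CPM.

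Of 112 pairs of other latent complex and activation genes, 7 were higher and 6 lower, against 3.92% and 2.79% of all genes. Thbs1, whose product thrombospondin 1 can activate latent TGF-β, was at 15.4 and 31.8 CPM in capillary cells, and lower in pericytes (571 and 242 CPM), osteoblasts and osteocytes (147 and 53.7 CPM) and chondrocytes (343 and 143 CPM). Fbn1, the fibrillin to which latent complexes attach, was at 630 and 263 CPM in pericytes. Ltbp2 was lower in Pi16-positive fibroblasts at 31.8 and 13.1 CPM. In the endothelial receptor arm, 2 of 43 pairs were higher (all genes 3.92%) and none lower (2.79%), namely Bmpr2 in B cells and Acvrl1 in mesenchymal cells, and no endothelial class was among them.

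Among 11 genes known as targets, 15 of 145 pairs were at least 2-fold higher and 36 lower, where 3.92% and 2.79% of all genes were. Pericytes, with 4.29% of all genes lower, held 4 of the lower ones, with Postn at 742 and 252 CPM, Ccn1 at 297 and 99.8 CPM, Ccn2 at 385.5 and 147 CPM and Fn1 at 510 and 228.5 CPM. Summed mesenchymal markers were at 4020 CPM in WT and 2660 CPM in mutant pericytes, and those of mature neutrophils at 187 and 9674 CPM. The part of such RNA in the pericyte results was not tested. In osteoblasts and osteocytes, with 3.86% of all genes higher, Ccn2 was at 31.8 and 127 CPM and Postn at 163 and 425 CPM. The contractile genes Acta2 and Tagln, smooth muscle markers as well as targets, were each at least 2-fold lower in 7 cell types. Among these types were inflammatory macrophages (67.1 and 6.97 CPM for Acta2) and mature neutrophils (155 and 37.5 CPM). The study reports raised Acta2 in its fibrosis-associated macrophages, a subset for which no class was named here. Acta2 was at least 2-fold higher in capillary cells (4.99 and 23.4 CPM) and chondrocytes. Whether RNA from smooth muscle cells had a part in these counts was not tested. Macrophages had none of 29 pathway genes past 2-fold, where 3.21% of all genes were at least 2-fold higher and 1.11% at least 2-fold lower.

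To place each gene, the genes with the most similar pattern over 41 points (cell types of both libraries) were ranked among 13696 genes by Pearson's r of log2(CPM + 5). The points share libraries and depth, so r is a description. Tgfb3 ran with Pcdh18 (0.935), Sobp (0.935) and Kcnma1 (0.926), and Tgfbr3 with Tln2 (0.928), Mpdz (0.926) and Cuedc1 (0.923). Ltbp1 ran with Ror1 (0.893), Plcd3 (0.885) and Mill2 (0.883), and Tgfbi with Ctsh (0.889), Ninj1 (0.835) and Ikbke (0.834). Tgfb2 was nearest to Neo1 (0.879), Sulf1 (0.871) and Nhs (0.867), and Tgfb1 to Dera (0.871), St8sia4 (0.798) and Arhgap25 (0.789). Inhba was nearest to Slc11a1 (0.815), Hilpda (0.802) and Slc16a3 (0.799), Tgfbr1 to Slc38a6 (0.821), Sqstm1 (0.756) and Creb5 (0.736), and Tgfbr2 to Zfp148 (0.798), Snx9 (0.798) and Rabep2 (0.778).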

How the data were processed

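Single-cell suspensions of dissected TMJ were captured with a 10x Genomics 3′ kit. The deposited files hold raw UMI counts per gene and barcode, which the authors made with Cell Ranger 7.0.1 on mm10. The labels and the study's methods name different kit versions and digestion enzymes, and whether intronic reads were counted is not given in the sources used here. Barcodes were kept when they held 500 or more genes and less than 10% mitochondrial UMIs, as in the study. Counts were normalised with sctransform 0.4.2, integrated by anchors over 3000 features and clustered in Seurat 5.3.0 (R 4.3.3) with 200 principal components at resolution 1.5. A cluster was named when at least 3 fixed markers were raised. After the clusters were seen, a cluster led by more markers of another type or by plasmacytoid dendritic cell genes was also left unnamed. Doublets were kept. Scrublet in scanpy 1.11.5 called 0 cells by its automatic threshold, so 239 WT and 462 mutant barcodes with the top scores were removed only as an alternative. Total counts were 53517206 in the WT and 62446987 in the mutant library.

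Levels are summed UMIs per 1000000 UMIs of a cell type and library, with exact Poisson intervals. Shares of cells have Clopper-Pearson intervals, and cells under 2000 UMIs were left out of thinned shares. Ratios have exact conditional binomial intervals (Python 3.11.15, scipy 1.17.1). UMIs are counted molecules, and intervals cover counting error only. A pair was called past 2-fold at a ratio of at least 2 or at most 0.5 with at least 50 UMIs over both libraries. The code was tested on simulated data. All 9 genes were described in every compared type. Of the pathway lists the genes past 2-fold were eligible for naming, up to 4 per type and direction by size, and 3 genes per member were named for likeness. Levels of the same genes in further types, and the direction over types of Smad3 and Bambi, were added after their values were seen. The genes, lists and markers were chosen with earlier results of these data known. Alternatives covered the cell filter, integration, resolution, principal components, doublets, totals, top cells and the UMI minimum.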

Additional observations from a re-analysis of the deposited data

Results flagged for a closer look

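In 3 genes the libraries differed in opposite directions between cell types, each past 2-fold and with counting intervals that did not cross 0, and the difference between the cell types was not tested because each genotype has 1 library. For Tgfbi, chondrocytes (higher in the mutant) and erythroid cells (lower) differed by 5.04 on the log2 scale. For Tgfb2, muscle satellite cells (higher) and mature neutrophils (lower) differed by 3.19, and the satellite value rested on 1 mutant cell, while the neutrophil value was 0.95 as a mean of CPM per cell. For Inhba, chondrocytes (higher) and pericytes (lower) differed by 2.97, and the pericyte value rested mostly on 1 WT cell, while the chondrocyte value was from -0.36 to -0.22 under both other cell filters and after removal of doublets.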

How the results depend on the processing

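No paired analysis was possible because each genotype has 1 library, and for the same reason no replicate could be left out. Of the 23 pairs past 2-fold, Ltbp1 in erythroid cells stayed past 2-fold under all 9 alternatives that gave a value, and Ltbp1 in capillary cells under 10 of 11, Ltbp1 in osteoblasts and osteocytes under 10 of 11, Inhba in macrophages under 10 of 11 and Tgfbr2 in granulocyte-monocyte progenitors under 9 of 11. For Inhba in macrophages the value nearest 0, -0.35, came from merging without integration. For these and other pairs with a marked difference, 347 log2 ratios under alternatives lay within the main counting interval and 98 moved outside it. The sign of pairs past 2-fold turned in 13 further cases, and the cause was not tested. With the libraries merged without integration, Ltbp1 in arterial cells was -0.58 and Inhba in mature neutrophils 0.18. With the top cell left out, Inhba in B cells was 0.94 and Tgfb2 in satellite cells -0.25. As a mean of CPM per cell, Inhba in B cells was 0.26 and Tgfb2 in mature neutrophils 0.95. In chondrocytes, the looser filter (200 genes, 20% mitochondrial UMIs), the stricter one (1000 genes, 5%) and doublet removal gave -0.36, -0.28 and -0.22 for Inhba and -0.13, -0.0045 and -0.040 for Tgfbr3. In cells chosen by endothelial markers, an alternative chosen after seeing the data, Tgfbi stood at 0.29 against the venous -1.14.

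The count of higher pairs (14) was 7 with a minimum of 200 UMIs and 5 at resolution 0.5. The count of lower pairs (9) was 4 under each of these and 4 as a mean of CPM per cell. Both main counts are out of 121 pairs. Fewer pairs reach 200 UMIs, and resolution 0.5 changes the classes, so these counts are not shares of the same pairs. Shares of all genes are given here for the main setting only. The whole-library Tgfb2 ratio at WT shares was 0.21 by cluster number against 0.10. Depth limits rare transcripts most: 50 of 171 pairs did not reach 50 UMIs. Thinned shares depend on the depth chosen. In the highest cell type of each gene, 33 shares at other depths moved outside the main interval and 3 did not.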

Other observations

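The clusters without a name also carried these genes. In a cluster with the macrophage genes Nos2 and Arg1 among its leading genes, which lacked 3 raised markers of any type and held 25 WT and 362 mutant cells, Inhba was at 3116 CPM in WT cells against 658.5 CPM in mutant cells, a log2 ratio of -2.24 (-2.41 to -2.08), and Tgfbi at 373 and 258 CPM. A single WT cell held 59.4% of the WT Inhba UMIs, and the mean of CPM per cell was 822 in WT and 434 in the mutant. Ltbp1 there was at 18.3 and 76.4 CPM, from 3 and 85 UMIs. A shallow cluster with raised endothelial markers, of 237 WT and 206 mutant cells, had Ltbp1 at 82.7 and 126 CPM, a log2 ratio of 0.61 (0.04 to 1.20). These clusters entered no comparison of cell types. Adipocytes, with 6 WT and 117 mutant cells, were too few to compare, and Tgfbr3 there was at 705 and 516 CPM.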
